A study of Mus musculus with 12 samples.

Results

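A pair of imprinted regions of mouse chromosome 6 were examined across 12 libraries: the window of Mest and the window shared by Peg10 and Sgce. In coordinates of build mm9 they are chr6:30685200-30689400 and chr6:4697000-4698000. Members were the cytosines of these 2 windows whose methylation reached 20% in at least 1 library, and a window level is the mean over its members that have a value in a library. The Mest window held 22 such cytosines among 65 listed, and the Peg10-Sgce window held 19 among 39. Together they were 41 of the 1710224 cytosines that reached 20% in the whole table, which lists 8119606 positions.

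At an imprinted gene 1 parental copy is silenced, and the choice is set by a differentially methylated region that received its methylation in the egg or in the sperm. Both windows are known as maternally methylated regions: the copy from the mother carries the methylation, and the gene is read from the copy of the father. Mest encodes a protein of the alpha/beta-hydrolase family that is abundant in embryonic mesoderm and affects growth. Peg10 derives from a retrotransposon and is needed for formation of the placenta. Sgce encodes epsilon-sarcoglycan, a membrane protein, and starts next to Peg10 in the opposite direction, so that they share the region.

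The assay, reduced representation bisulfite sequencing (RRBS), reads fragments that the enzyme MspI cuts at CCGG. Wild-type (WT) cells were diploid embryonic stem cells (ESCs), androgenetic haploid ESCs (ahESCs, whose genome comes from the father) and parthenogenetic haploid ESCs (phESCs, whose genome comes from the mother), each at early and late passage. Embryos at day E15.5 were WT, bimaternal (BM, from a phESC injected into an oocyte) or bipaternal (BP, from a sperm and an ahESC that were placed together in an oocyte without its own nucleus). Brains came from BM animals at E19.5 and as adults, and from WT adults. All BM and BP samples are labelled as knockouts of differentially methylated regions (DMR-KO), with no statement of which regions were deleted, so a deletion that touches either window cannot be told apart from a change of methylation. The haploid cells sequenced here are labelled WT and do not carry the label DMR-KO.

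Each group is 1 library, so no comparison of libraries has a replicate error or a test, and an SD given here is the spread over cytosines of 1 library. Between 3773871 (BP embryo) and 5903648 (WT adult brain) cytosines had a value. How many reads lie behind a value is unknown, since the deposited percentages come without coverage. A difference of 25 points or more between window means was counted as called, and it is set beside the share of all 1 kb tiles of the genome that passed the same rule. Tiles were counted in the direction of the called windows, and in either direction where no window was called, so these shares are not all alike.

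A promoter of Mest is shown for its CG cytosines and because it holds no site of the enzyme. The 250 bases before a start of Mest in RefSeq, on build GRCm38.p6 at chr6:30737800-30738049 of the plus strand, are printed with capitals at each GCGGCA. This is the reverse complement of the hexamer TGCCGC, which the imprint-maintaining zinc finger protein ZFP57 binds in its methylated form.
Mest: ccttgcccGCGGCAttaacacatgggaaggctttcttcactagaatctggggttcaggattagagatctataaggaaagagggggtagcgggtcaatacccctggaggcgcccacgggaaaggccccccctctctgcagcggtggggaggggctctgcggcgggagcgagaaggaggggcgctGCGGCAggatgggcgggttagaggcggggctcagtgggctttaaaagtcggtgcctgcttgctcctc
This sequence holds 14 CG and 2 copies of TGCCGC on either strand, and no CCGG, so MspI has no site within it. Of 32817 promoters of this length, 8.68% hold TGCCGC, 0.875% hold it 2 or more times, 47.0% hold CCGG, and the median number of CG is 6. An upstream promoter of Mest (chr6:30733256-30733505) holds 7 CG, 0 copies of TGCCGC and no CCGG. No listed position near the Mest window could be matched to either promoter (0 matched positions), and the same source gave no entry for Peg10 or Sgce.

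The members fell into 3 short stretches. In the Mest window, 14 cytosines lay in an upstream cluster of 216 bp (chr6:30685294-30685509) and 8 in a downstream cluster of 81 bp (chr6:30689254-30689334), with 3745 bp between them. No exon of Mest could be placed on mm9 by its pattern of listed positions, so whether these clusters are exonic, intronic or upstream of the gene is not given here. The 11 listed cytosines between the clusters all stood at 0%, but 10 of them had a value in early phESCs only and the other in the WT adult brain only. They give no level for this stretch in the remaining libraries. In the Peg10-Sgce window all 19 members were CG cytosines of Peg10 exon 1, which matched 39 listed positions at chr6:4697306-4697578 (the next best place on the chromosome matched 13). They ran from base 50 to base 185 of the exon (chr6:4697355-4697490), with 9 on the plus strand and 10 on the minus strand. No exon of Sgce could be placed, so no value is assigned to an exon of Sgce.

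In the WT embryo, which has 1 genome from each parent, both windows were at intermediate methylation. The Mest window stood at 55.8% (SD 11.1 over 18 cytosines) and the Peg10-Sgce window at 41.1% (SD 2.65 over 19 cytosines). At Mest 17 of 18 cytosines, and at Peg10-Sgce 19 of 19, lay between 25 and 75%. The highest cytosine of either window in this library stood at 76.5% and the lowest at 37.0%. Listed cytosines of the same windows that are not members are low by the rule that left them out, and 13 of the 20 in the Peg10-Sgce window are in GC and not in CG.

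**Figure D1:**
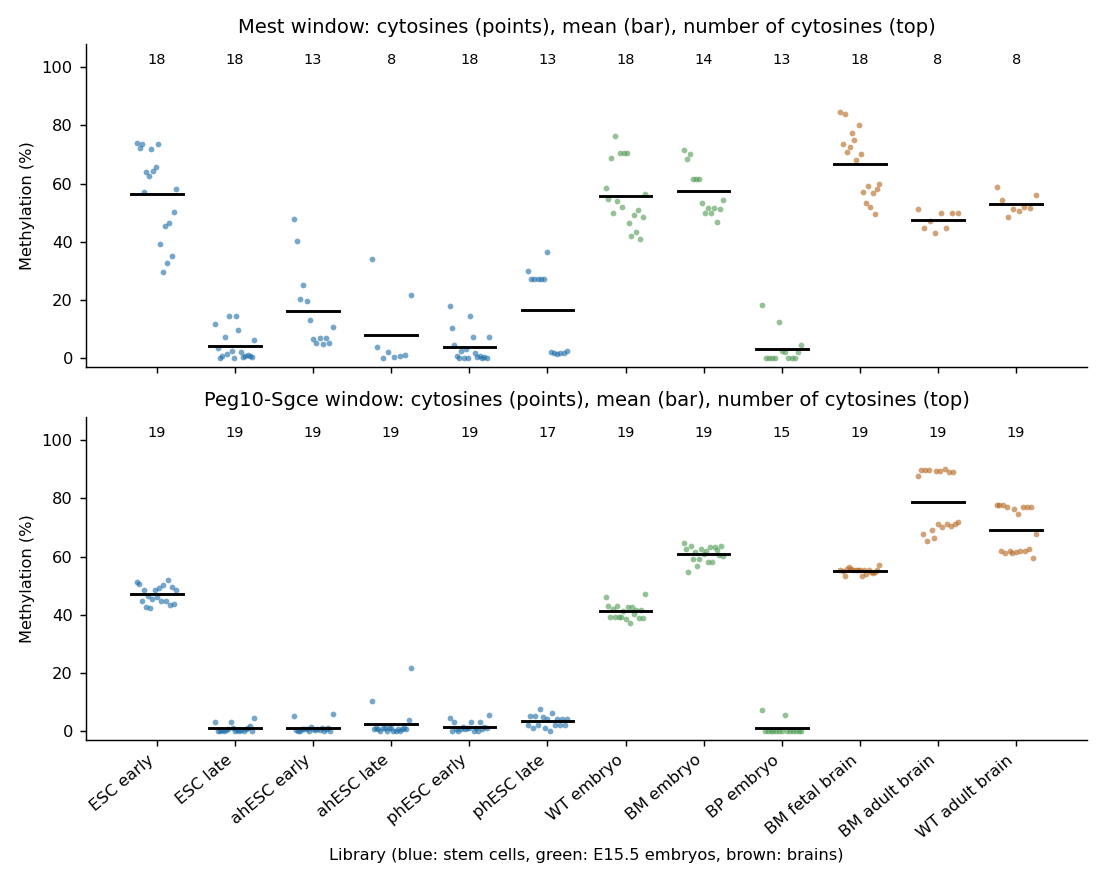
Methylation (%) of each member cytosine (points) and the window mean (bars) in the 12 libraries, for the Mest window above and the Peg10-Sgce window below, with the number of cytosines with a value at the top of each column (BM fetal brain is the E19.5 BM brain). Early diploid ESCs, the WT and BM embryos and the 3 brains lie between 41.1% and 78.9% on average, and the other 6 libraries lie at or below 16.5%.

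The 12 libraries formed the same upper and lower sets of 6 at both windows. At the Mest window, the E19.5 BM brain stood at 66.8%, the BM embryo at 57.4%, early ESCs at 56.4%, the WT embryo at 55.8%, the WT adult brain at 52.9% and the BM adult brain at 47.6%. Below them were late phESCs at 16.5%, early ahESCs at 16.3%, late ahESCs at 7.98%, late ESCs at 4.24%, early phESCs at 3.91% and the BP embryo at 3.21%. Within each set, neighbours in this order differed by less than the smaller of their SDs over cytosines, with 2 exceptions. The E19.5 BM brain stood 9.37 points above the BM embryo, more than 1 of their SDs (8.26) and less than the other (11.2). The BM adult brain differed from the WT adult brain by -5.27 points, more than both SDs (3.17 and 3.35). These SDs hold no error between libraries, so whether any 2 libraries differ was not tested. The means rest on different cytosines, since late ahESCs and the adult brains have values in the downstream cluster only.

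At the Peg10-Sgce window the upper set was more spread out. The BM adult brain stood at 78.9% (SD 10.3), the WT adult brain at 69.1% (SD 7.73), the BM embryo at 60.9% (SD 2.73), the E19.5 BM brain at 55.1% (SD 0.910), early ESCs at 47.0% (SD 3.07) and the WT embryo at 41.1% (SD 2.65). Neighbours in this order differed by more than the larger of their SDs, except the adult brains. The SDs are over cytosines of 1 short stretch and hold no error between libraries. The lower set ran from 3.36% in late phESCs (SD 2.05) through 2.37% in late ahESCs, 1.47% in early phESCs, 1.02% in early ahESCs and 0.901% in late ESCs to 0.847% in the BP embryo, and neighbours in it differed by less than their spread. Over the 12 libraries the Mest mean exceeded the Peg10-Sgce mean by 2.23 points (SD 13.8, n = 12), higher in 9 and lower in 3 libraries. An exact permutation test that flips signs (two-sided) gave p = 0.599 (1 after Benjamini-Hochberg adjustment over the 3 tests made here, the smallest possible p being 0.000488). This does not show that the 2 windows have equal levels. With every listed cytosine the mean difference was -6.69 points, so its sign depends on which cytosines enter. Several libraries are passages or stages of the same type, and the test treats them as independent units.

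Early diploid ESCs carried both regions at an intermediate level and late diploid ESCs carried almost none. The Mest window stood at 56.4% early and 4.24% late, a difference of -52.1 points, and 18 of 18 cytosines were lower. The Peg10-Sgce window stood at 47.0% and 0.901%, a difference of -46.1 points, lower at 19 of 19 cytosines. Both windows were called, but so were 73.8% of 58621 tiles as lower by 25 points, and the median tile differed by -38.8 points.

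Both haploid types were low at early passage already. In ahESCs the Peg10-Sgce window stood at 1.02% early and 2.37% late, and the Mest window at 16.3% and 7.98%. The difference of -8.30 points at Mest came with a change of cytosines: over the 8 cytosines measured at both passages it was 0.637 points. In phESCs the Peg10-Sgce window stood at 1.47% and 3.36%. The Mest window stood at 3.91% and 16.5%, a difference of 12.5 points that did not reach the rule. Of all tiles, 58.7% passed the rule in either direction over passage in ahESCs and 3.24% in phESCs. Over the 3 cell types the mean late minus early difference was -16.0 points (SD 33.02, n = 3) at Mest and -14.3 points (SD 27.5, n = 3) at Peg10-Sgce. The same exact permutation test gave p = 0.75 and p = 1 (each 1 after Benjamini-Hochberg adjustment), where 3 pairs cannot go below 0.25.

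The 12.5 points in phESCs came mainly from the upstream Mest cluster. In late phESCs this cluster stood at 29.0% over 7 cytosines, of which 5 had the same value of 27.3%, the highest was 36.4%, and 4 had a value in no other library. Those 4 are members only through their level in late phESCs, while positions among them with 0 to 18.2% in the same library were left out by the same rule, so the mean of 29.0% is raised by the choice of members. The other 3 reached 20% in other libraries as well, and stood at 27.3%, 27.3% and 36.4% in late phESCs against 0.735%, 2.25% and 3.03% in early phESCs. With members chosen by the other libraries alone the window difference was 7.43 points. The late phESC values listed in the upstream stretch were 0, 9.09, 18.2, 27.3, 30 and 36.4%. Few reads may lie behind each of them, but the depth is unknown. In early phESCs the cluster stood at 5.31% over 10 cytosines. The downstream cluster stood at 2.14% early and 1.86% late. Over the 9 cytosines of both clusters measured at both passages the difference was 10.4 points, and over the 6 of the downstream cluster it was 1.41 points. The late phESC library also had values at 5 CG cytosines of the Peg10-Sgce window that no other library covers, and none at the CCGG ends of that fragment.

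At early passage ahESCs differed from diploid ESCs at both windows, while few tiles of the genome differed. The Mest window stood -40.1 points from the ESC value (16.3% and 56.4%), and the difference was -35.0 points over the 13 cytosines measured in both libraries, each of which was lower. The Peg10-Sgce window differed by -45.9 points, lower at 19 of 19 cytosines (1.02% and 47.0%). Only 0.349% of 63888 tiles were lower by 25 points (223 lower and 196 higher). The 5th and 95th percentiles of the tile differences were -9.57 and 7.11 points. The Mest window of early ahESCs was not uniform. Its upstream cluster stood at 30.6% (SD 12.7 over 5 cytosines), from 19.7% to 47.8%, and its downstream cluster at 7.35% (SD 2.90 over 8 cytosines).

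Early phESCs, whose genome is of maternal origin, were low at both of these maternally methylated regions. At Mest they stood at 3.91% against 56.4% in early ESCs, a difference of -52.5 points with 18 of 18 cytosines lower. The Peg10-Sgce window stood at 1.47% against 47.0%, a difference of -45.5 points with 19 of 19 lower. Here the background was wide as well, since 53.4% of 61764 tiles were lower by 25 points, with a median of -26.0. Both windows lay below the 5th percentile of the tile differences, -43.2 points.

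At late passage no window differed by 25 points between the cell types. Late ahESCs stood 3.75 points from late ESCs at Mest (8 and 18 cytosines) and 1.46 points at Peg10-Sgce, where 1.63% of tiles passed the rule in either direction. At Mest the difference was -0.172 points with the median over cytosines and -2.42 points without the end cytosines, where Peg10-Sgce gave 0.186 points. These Mest values, like the 3.75 points, compare unlike cytosines, because late ahESCs have no upstream value. Over the 8 downstream cytosines measured in both libraries the difference was 5.40 points (6 higher, 2 lower). Over the 6 cytosines between the ends of that cluster it was 0.528 points (4 higher, 2 lower). Late phESCs exceeded late ESCs by 12.2 points at Mest (7.10 with members chosen by the other libraries) and 2.46 points at Peg10-Sgce, with 2.35% of tiles past the rule. At the downstream Mest cluster alone, late ESCs stood at 2.58%, late ahESCs at 7.98% (8 cytosines each) and late phESCs at 1.86% (6 cytosines). Over the 6 cytosines between its ends, measured in each of these libraries, they stood at 0.839%, 1.37% and 1.86%. The order of the libraries thus depends on which cytosines enter.

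In late ahESCs the highest values lay at the outer cytosines of the downstream Mest cluster and of the Peg10 stretch. At Peg10 these lie within CCGG, the site that MspI cuts, and at Mest their context was not determined. In this library the 2 end cytosines of the downstream Mest cluster stood at 34.1% and 21.6%, and the 6 between them at 1.37% (SD 1.41). The 2 Peg10 members within CCGG stood at 10.3% and 21.8%, against 0.753% (SD 0.877) over the other 17. Early ahESCs (12.9% and 10.6% at the Mest ends, 5.88% between them) and late ESCs (9.49% and 6.14%, against 0.839%) had the same order in the downstream cluster. Early phESCs had it too (7.20% and 7.29%, against 0.443%). In early ahESCs the upstream cluster (30.6%) was higher than these ends, and late phESCs had no value at the ends. At Peg10 the CCGG members stood above the mean of the other 17 in early ahESCs (5.25% and 5.85%, against 0.487%). They did so in late ESCs (3.11% and 4.375%, against 0.567%) and early phESCs (4.35% and 5.41%, against 1.07%). In the BP embryo the ends stood at 12.5% and 4.35% at Mest (1.13% between them) and at 7.14% and 0% at Peg10. Another 4 positions, each next to 1 of these outer cytosines, had values in late ahESCs and the adult brains only. They stood from 2.34% to 15.8% and are not members because none reached 20%. The part of fragment ends in the levels was not tested. Without the end cytosines the downstream Mest difference between late and early ahESCs was -4.51 points in place of 0.637, with 6 of 6 cytosines lower.

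**Figure D2:**
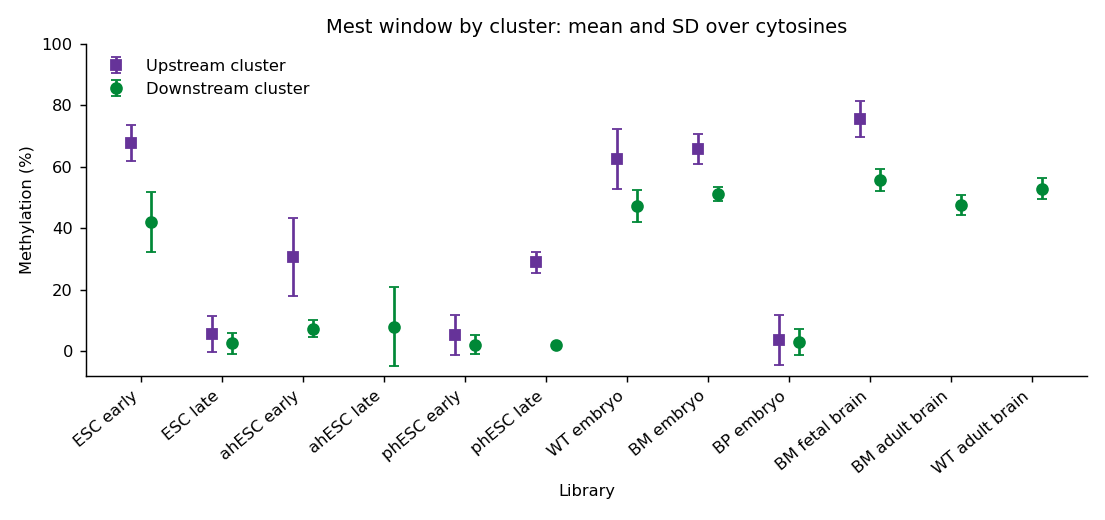
Mean methylation (%) of the upstream (squares) and downstream (circles) Mest clusters in each library, with the SD over cytosines as bars; a missing symbol means no cytosine with a value. The upstream cluster is the higher in each of the 9 libraries that measure both, by the widest margins in late phESCs (29.0% and 1.86%), early ESCs (67.9% and 42.0%) and early ahESCs (30.6% and 7.35%). The 29.0% is raised by the choice of members, since 4 of its 7 cytosines are members only through their level in late phESCs.

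The 2 Mest clusters kept an order in the intermediate libraries. The upstream cluster stood at 67.9% in early ESCs, 62.6% in the WT embryo, 65.7% in the BM embryo and 75.6% in the E19.5 BM brain. The downstream cluster stood at 42.0%, 47.2%, 51.1% and 55.7% in the same libraries. Each pair differed by more than the SD of either cluster, but the clusters were chosen by their position in these data and their difference was not tested.

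The BP embryo, built from paternal genomes, had no more than traces of methylation in either window. At Mest it stood at 3.21% against 55.8% in the WT embryo, a difference of -52.5 points, and of -46.5 points over the 13 cytosines measured in both. The Peg10-Sgce window stood at 0.847% against 41.1%, a difference of -40.3 points. Each shared cytosine was lower, 13 at Mest and 15 at Peg10-Sgce. Only 0.195% of 52217 tiles were lower by 25 points (102 tiles), while 671 were higher by 25 points. The median tile differed by 0.417 points. The highest BP values were 18.2% and 12.5% at the first cytosines of the 2 Mest clusters and 7.14% at the first CCGG cytosine of Peg10.

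Outside the windows the BP embryo was methylated. Of the tiles up to 20 kb from the windows, with at least 3 member-level cytosines, the 5 near Mest stood between 40.4% and 90.0% in the BP embryo and the 3 near Peg10 between 71.4% and 89.1%. In the WT embryo the same tiles ran from 55.8% to 95.7% and from 77.0% to 92.2%. The nearest tile upstream of Mest (chr6:30682000-30682999) was intermediate, at 40.4% in the BP, 55.8% in the WT and 60.4% in the BM embryo, and at 36.8%, 13.5% and 6.04% in early ESCs, ahESCs and phESCs. In late ESCs these tiles were lower too, from 4.11% to 32.6% near Mest and from 13.3% to 44.1% near Peg10, beside 4.24% and 0.901% in the windows.

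**Figure D3:**
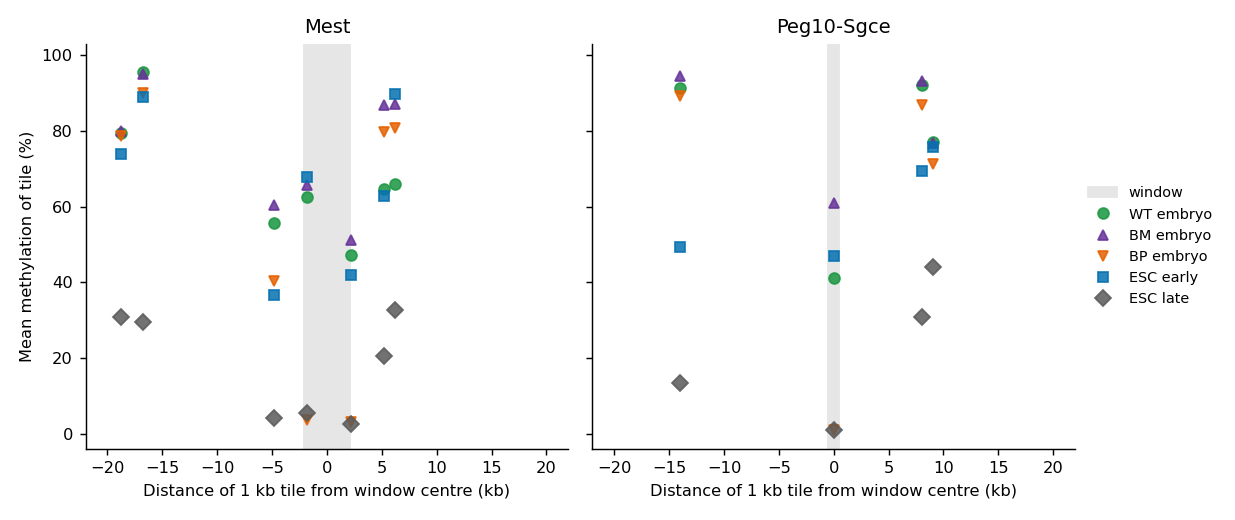
Mean methylation (%) of 1 kb tiles against their distance (kb) from the centre of the Mest (left) and Peg10-Sgce (right) windows, shaded grey, in 5 libraries. BP embryo tiles lie at 3.64% or less inside the windows and at 40.4% or more outside them, and late ESC tiles are the lowest of the 5 at each distance outside the windows.

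The BM embryo, built from maternal genomes, was intermediate at both windows and above the WT embryo at Peg10-Sgce. The Peg10-Sgce window stood at 60.9% against 41.1%, a difference of 19.8 points. All 19 cytosines were higher, and the lowest BM value (54.5%) exceeded the highest WT value (47.2%). This difference did not reach 25 points, but it lay above the 95th percentile of tile differences, 13.2 points, and 1.48% of 57711 tiles passed the rule in either direction (829 higher and 23 lower). The Mest window stood at 57.4% against 55.8%, or 6.28 points higher over the 14 cytosines measured in both, of which 13 were higher. Neither BM window approached full methylation, with highest single cytosines of 71.7% at Mest and 64.6% at Peg10-Sgce.

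In the adult brains the Peg10-Sgce window stood higher than at the earlier stages, and the Mest window showed no difference of that size. The Peg10-Sgce window stood at 55.1% in the E19.5 BM brain and 78.9% in the BM adult brain, 23.8 points higher, at 19 of 19 cytosines. It stood at 69.1% in the WT adult brain, 28.0 points above the WT embryo, again at 19 of 19. The second of these was called, in a comparison where 3.58% of 52875 tiles were higher by 25 points (1893 higher and 1508 lower). In the first, 7.00% of 37175 tiles passed the rule in either direction, but only 82 were higher and 2521 lower, and the 95th percentile was 5.46 points. The downstream Mest cluster stood at 55.7% in the E19.5 and 47.6% in the adult BM brain, lower at 8 of 8 cytosines, and at 47.2% in the WT embryo and 52.9% in the WT adult brain. The whole Mest window gave -19.2 and -2.90 points for these comparisons, with no upstream value in the adult brains. The embryo libraries are of whole embryos, so tissue and age cannot be told apart in the WT comparison.

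The BM and WT adult brains were close to each other at both windows. The Peg10-Sgce window was higher in BM by 9.79 points, at 19 of 19 cytosines, and the Mest window differed by -5.27 points, lower at 8 of 8 cytosines. Only 0.0415% of 77063 tiles passed the rule, and the 5th and 95th percentiles were -7.55 and 5.02 points, so that the Peg10-Sgce difference lay above the upper one. The E19.5 BM brain differed from the BM embryo by 9.37 points at Mest (7.20 over shared cytosines, 14 of 14 higher) and by -5.80 points at Peg10-Sgce (19 of 19 lower), where 4.14% of tiles passed the rule in either direction (2039 higher and 262 lower). The comparisons of embryos and brains share libraries with each other and are not independent.

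**Figure D4:**
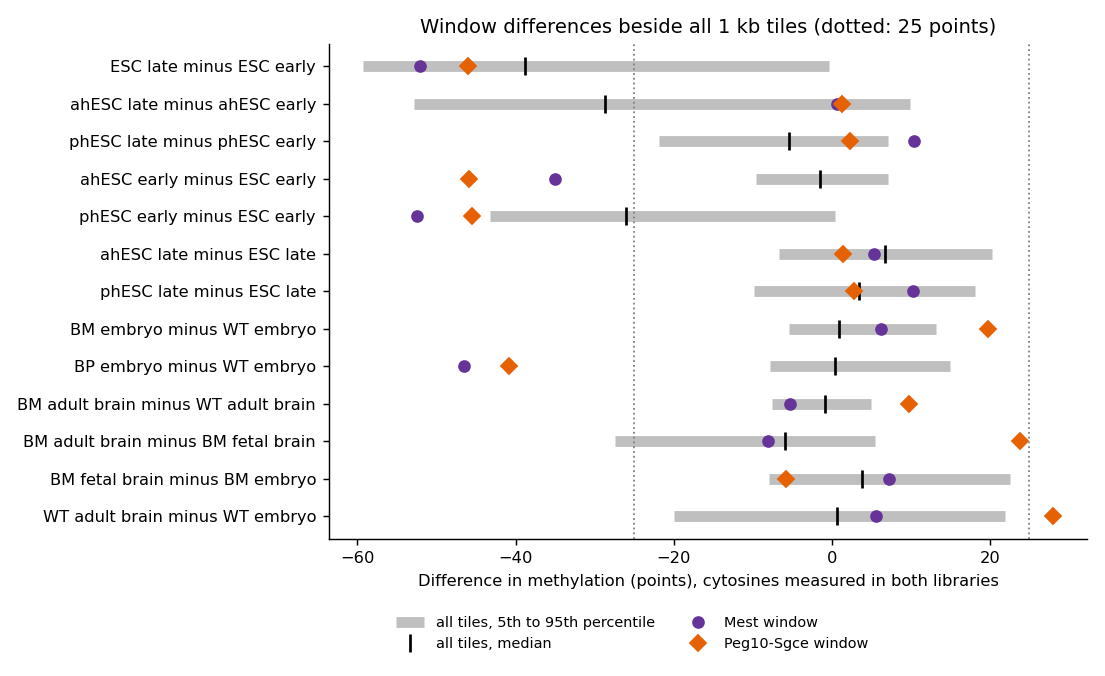
Difference in methylation (points) of the Mest (circles) and Peg10-Sgce (diamonds) windows in 13 comparisons, over cytosines measured in both libraries, beside the median (black tick) and the 5th to 95th percentiles (grey bar) of all 1 kb tiles; dotted lines mark 25 points. The windows lie far outside the tile range in the BP embryo against WT and in early ahESCs against ESCs, and inside it over passage in ESCs.

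The high adult level at Peg10 was unequal between the strands. In the BM adult brain the 9 plus-strand cytosines stood at 89.3% (SD 0.627) and the 10 minus-strand cytosines at 69.5% (SD 2.30), and plus exceeded minus at 8 of 8 CG pairs. In the WT adult brain they stood at 76.9% (SD 0.952) and 62.1% (SD 2.14), again at 8 of 8 pairs. The gap was smaller elsewhere: 5.003 points in early ESCs (8 of 8 pairs), 3.42 in the BM embryo (7 of 8), 2.95 in the WT embryo (8 of 8) and -0.406 in the E19.5 BM brain (3 of 8). In late phESCs it had the opposite sign, with 1.49% on the plus and 5.02% on the minus strand. On the plus strand the BM adult brain exceeded the E19.5 brain by 34.5 points, past the rule, and on the minus strand by 14.3 points. The WT adult brain exceeded the WT embryo by 34.2 points on the plus strand and 22.4 points on the minus strand, the latter short of the rule.

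**Figure D5:**
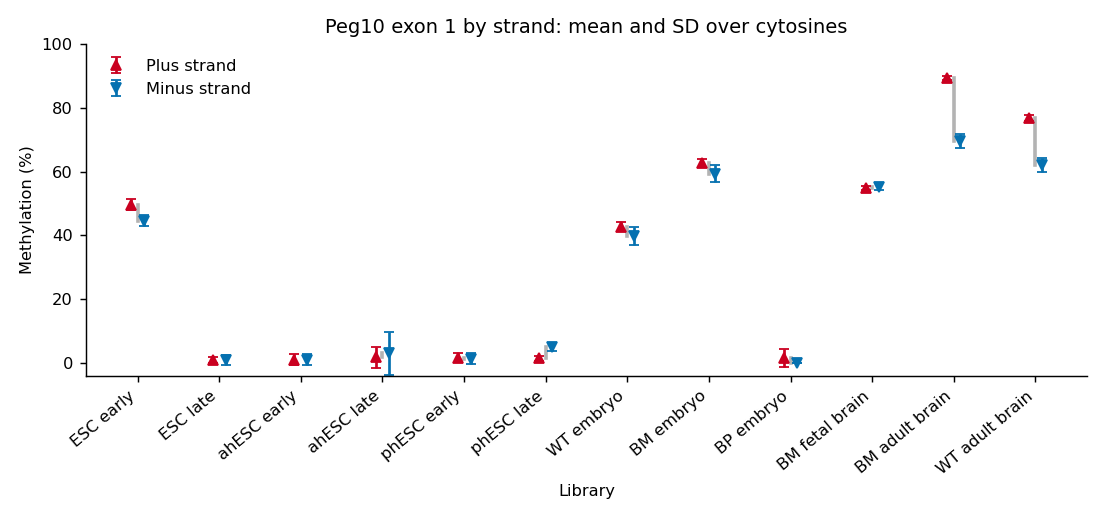
Mean methylation (%) of the plus-strand (upward triangles) and minus-strand (downward triangles) cytosines of Peg10 exon 1 in each library, with the SD over cytosines as bars and a grey line over the gap. The strands lie 19.8 points apart in the BM and 14.7 points apart in the WT adult brain, and at most 5.003 points apart in the other libraries.

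At Mest, positions next to each other were read as the strands of 1 CG, in which the first base is the cytosine of the plus strand. Their CG context was not determined. At the downstream cluster the first of each pair was lower than the second in early ESCs (32.3% and 47.3%), the WT embryo (42.0% and 49.5%), the E19.5 BM brain (51.6% and 57.9%) and the BM adult brain (44.1% and 49.0%), at 3 of 3 pairs in each. In the WT adult brain the first was higher (52.45% and 50.2%, 3 of 3 pairs). Strands of a fragment are read separately in RRBS, and the depth of each is unknown.

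Genes next to the windows, where their first exon could be placed, did not carry the intermediate pattern. Of 11 neighbours 7 were placed, and 5 of these held member-level cytosines in that exon. Klf14, a zinc finger gene (exon from chr6:30906023), stood at 3.94% in early and 3.70% in late ESCs and at 13.1% in the WT and 10.8% in the BP embryo (12 cytosines). Calcr, the calcitonin receptor gene (exon from chr6:3714432), stood at 18.95% and 6.35% in early and late ESCs and at 7.86% and 6.08% in the WT and BP embryos (6 cytosines). Casd1 (4 cytosines), Pon2 (2) and Copg2 (1) stood between 4.66% and 11.98% in the WT embryo and between 3.33% and 11.1% in the BP embryo. Their highest levels were in late ahESCs, at 25.3%, 21.5% and 26.3%.

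Among 21217 tiles with values in all 12 libraries, the tiles most like the windows were ranked by the mean absolute difference from the 12 window means. For the Mest window the nearest was chr7:135831000-135831999 (4.19 points), where no exon was placed, followed by a tile in Nnat (4.93 points, chr2:157387000-157387999), which encodes neuronatin, a small membrane protein of the brain. For the Peg10-Sgce window the nearest was a tile in Plagl1 (3.50 points, chr10:12810000-12810999), which encodes a zinc finger protein that slows cell growth. A tile in Nap1l5 (4.77 points, chr6:58856000-58856999), which encodes a protein related to nucleosome assembly proteins, was the fourth nearest. The Plagl1 tile stood at 42.1% in early ESCs, 58.6% in the WT embryo, 1.01% in the BP embryo, 53.9% in the E19.5 BM brain, 78.1% in the BM adult brain and 62.2% in the WT adult brain. The Nnat tile stood at 44.7% in early ESCs, 12.3% in early ahESCs, 44.5% in the WT embryo and 5.81% in the BP embryo. The other 6 tiles, at 4.28 to 6.09 points, held no placed exon.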

How the data were processed

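RRBS was done on 12 mouse libraries (1 per group): genomic DNA was cut with MspI, size-selected at 150 to 300 bp, bisulfite-treated and sequenced, per the labels' protocols. Trim Galore and Bismark 0.13.1 on build mm9 are named in the submitters' processing notes. The deposited values are methylation levels in percent per listed cytosine, CG and GC cytosines alike, with missing values and without coverage. All 12 columns were used and 0 columns belonged to no sample. No count test was used.

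Members had 20% or more in any library, and a window needed 5 cytosines per library. Means over cytosines were compared, with 25 points as the rule. The background is the share of 1 kb tiles, with at least 5 such cytosines measured in both libraries, that passed the rule in the direction counted. Exons of GENCODE M21 transcripts were placed on mm9 by matching their CG and GC pattern to the listed positions: at least 20 matches, no listed position in conflict and 1.5 times the next best place. This is stricter than the 8 matches first chosen. No coordinate was converted between builds. Promoter sequence is from RefSeq (GRCm38.p6), in which 1 of the 3 genes, Mest, had an entry. Named genes were Mest, Peg10 and Sgce, and the genes of the 5 tiles of 1 kb most like each window. Tile counts were also run on simulated shifts larger than the rule at a fixed read depth. This does not test the tile shares given here, because the real depth is unknown. The members, lists and rules were chosen with earlier results of these data known. Scripts ran in Python 3.11.15 with SciPy 1.17.1, pandas 2.3.3, Matplotlib 3.10.9 and NumPy 2.4.6.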

Additional observations from a re-analysis of the deposited data

Results flagged for a closer look

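The passage difference of the Mest window had opposite signs between cell types. It was -52.1 points in diploid ESCs and -8.30 points in ahESCs, against 12.5 points in phESCs. In phESCs it was 7.43 points with members chosen by the other libraries alone. With 1 library per group these differences between cell types were not tested. At the downstream Mest cluster the same differences were -39.4, 0.637 and -0.288 points over each library's own cytosines. Over its 6 inner cytosines, measured in all 6 libraries, they were -39.0, -4.51 and 1.41 points, so the signs in ahESCs and phESCs depend on which downstream cytosines enter. In the upstream cluster 5 of 7 late phESC values are the same 27.3%.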

How the results depend on the processing

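No alternative reversed the sign of a called difference, and of 104 alternative values for the 9 called differences 97 stayed on the same side of 25 points. Many of these alternatives selected the same cytosines and repeat the main value exactly, so the count overstates how far the differences were put to a test. Taking every listed cytosine, which adds positions that are low in all libraries, gave Mest differences of -22.6 (ESC passage), -17.8 (early ahESCs against ESCs), -23.1 (early phESCs against ESCs), -22.9 (BP against WT embryo) and -1.68 points (adult brains). At Peg10-Sgce it gave 13.2 (BM against WT embryo), 13.1 (BM adult against E19.5 brain) and 16.8 points (WT adult brain against embryo), and turned the mean of Mest minus Peg10-Sgce over libraries to -6.69 points (p = 0.0972, exact sign-flip permutation test). A level of 10% gave 22.8 points for the last Peg10-Sgce comparison. The median over cytosines gave Mest differences of 26.1 (phESC passage) and 25.6 points (late phESCs against ESCs), while members chosen outside the pair, or at a level of 50%, gave 7.43 and 7.10 points. Strands or clusters taken alone and the removal of end cytosines were chosen after seeing the data. The plus strand alone gave 34.5 points for the BM brain and the minus strand alone 22.4 points for the WT adult brain against the embryo. Tile shares moved by over 1.5 times in 28 of 52 alternatives. For the BP embryo the share of lower tiles, 0.195%, became 0.981% at 15 points, 0.0421% at 40 points and 0.335% with 10 cytosines per tile. For early ahESCs against ESCs 0.349% became 1.52%, 0.0704% and 0.533%. Narrowing the Mest window at both ends left no value in any comparison. No replicate could be left out, and no paired analysis was possible by replicate number because each group has 1 library; the tests over cell types and over libraries pair libraries and not replicates. The unknown depth limits all values.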
